A study of Mus musculus with 16 samples.

Results

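The insulin-like growth factor (IGF) system was followed in cultured mouse muscle cells through 10 genes, which are the ligands Igf1 and Igf2, the receptors Igf1r and Igf2r, and the binding proteins Igfbp2, Igfbp3, Igfbp4, Igfbp5, Igfbp6 and Igfbp7. They were taken by gene symbol from a table of read counts with 19799 named genes. All 10 were among the 16245 genes with enough reads to be tested.

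IGF1 and IGF2 are secreted peptides that activate the tyrosine kinase IGF1R, which signals through IRS adaptors to PI3K, Akt and mTOR and so to growth and survival. IGF2R, the cation-independent mannose 6-phosphate receptor, takes IGF2 to the lysosome and does not signal in that way. The binding proteins hold the ligands outside the cell and can prolong or block their action. In skeletal muscle, Igf2 is known as an autocrine factor of differentiating myoblasts, and Igfbp5 as a binding protein that muscle cells secrete as they differentiate.

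The 16 RNA-seq libraries came from 6 groups of pmi28 cells, mouse myoblasts kept as a line and able to fuse into multinucleated myotubes. An msx2 line carried inducible transgenes for msx2, a homeobox transcription factor known for keeping cells undifferentiated, and for GFP. A GFP line carried the inducible GFP transgene alone and served as its control. The groups were induced isolated myotubes (3 libraries), uninduced isolated myotubes (3 libraries) and uninduced myoblasts (2 libraries) of the msx2 line, and the same 3 states with the same numbers of libraries of the GFP line. Growth medium held 20% fetal bovine serum, and fusion took 3 days in 10% horse serum. Myotubes were then caught on a mesh, which lets mononucleated cells through, and recultured with AraC, a drug that kills dividing cells. Induction was doxycycline at 2 µg/ml for 24 h, given in the serum-rich growth medium. In which medium uninduced myotubes were kept, and whether each line is 1 clone, is not stated, so induction within a line may combine the drug, the medium and the transgenes, and the GFP line is the control for the first 2 and for GFP.

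Libraries held 19784873 to 33092666 counted reads. Msx2 reads, which can include those of the transgene, stood at 1344 to 1514 CPM (read counts scaled to library size) in induced msx2 myotubes, against 12.1 to 15.9 CPM in uninduced msx2 myotubes, and at 0.803 to 1.59 CPM in all libraries of the GFP line. In msx2 myoblasts they were at 16.4 to 16.8 CPM. The muscle label held against 8 muscle markers, of which 8 rose with differentiation in the GFP line and 7 in the msx2 line, and whose summed level was 15040 to 30070 CPM in myotube libraries and 1107 to 2160 CPM in myoblast libraries. Markers of smooth muscle summed to 424 to 1003 CPM in induced msx2 myotubes, against 1092 to 1534 CPM in uninduced ones. On that induction 1 of 4 was lower, where 16.3% of all genes were, and the part of these markers in the results below was not tested. Markers of endothelium summed to 6.86 to 11.9 CPM, of leukocytes to 21.3 to 33.6 CPM and of adipocytes to 3.58 to 7.34 CPM. With differentiation, 3 of 5 endothelial and 3 of 5 leukocyte markers rose in each line, and 1 leukocyte marker fell in the GFP line. Of all genes, 79.8% were called in the msx2 line and 77.7% in the GFP line on that step. The part of these shifts in the results below was not tested. Within the leukocyte list, Csf1r rose with msx2 induction to 5.51 to 6.41 CPM, against 0.499 to 0.841 CPM in uninduced msx2 myotubes (adjusted p = 2.44e-07), and Itgam fell to 15.7 to 17.8 CPM, against 19.6 to 22.4 CPM in uninduced ones (adjusted p = 0.033); their part in the results below was not tested. Of 8 fibroblast markers, Tcf21 had no read in either myoblast group or either uninduced myotube group, and Lum had none in either myoblast group. The library numbered 2 of each msx2 myotube group stood apart by its fibroblast sum, given below beside the gene that it moved with. Nothing in the labels ties replicates to separate cultures, and a p-value here measures only the spread between these libraries, which may be technical.

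Induction of msx2 raised 6 of the 10 family members and lowered none, at an adjusted p under 0.05 in edgeR's quasi-likelihood test, where 32.5% of all genes tested were called (16.2% higher and 16.3% lower). The binding proteins Igfbp5, Igfbp4 and Igfbp3 rose the most, by 3.14-fold, 2.34-fold and 2.32-fold. Igf2 rose 1.40-fold, and the receptors Igf1r and Igf2r rose 1.19-fold and 1.14-fold. Induction of the GFP line called 0 of the 10, where 0.0308% of all genes were called, all higher. DESeq2 called 0 too, and 0 members had an unadjusted p under 0.05. The induction effect itself differed between the lines for 3 of the 10, Igfbp3, Igfbp4 and Igfbp5, all higher, where 17.9% of all genes were called (9.15% higher and 8.78% lower). The median log2 change of the 10 members was 0.22 with msx2, beside -0.011 over all genes, and -0.011 with GFP alone, beside -0.0014 over all genes.

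**Figure D1:**
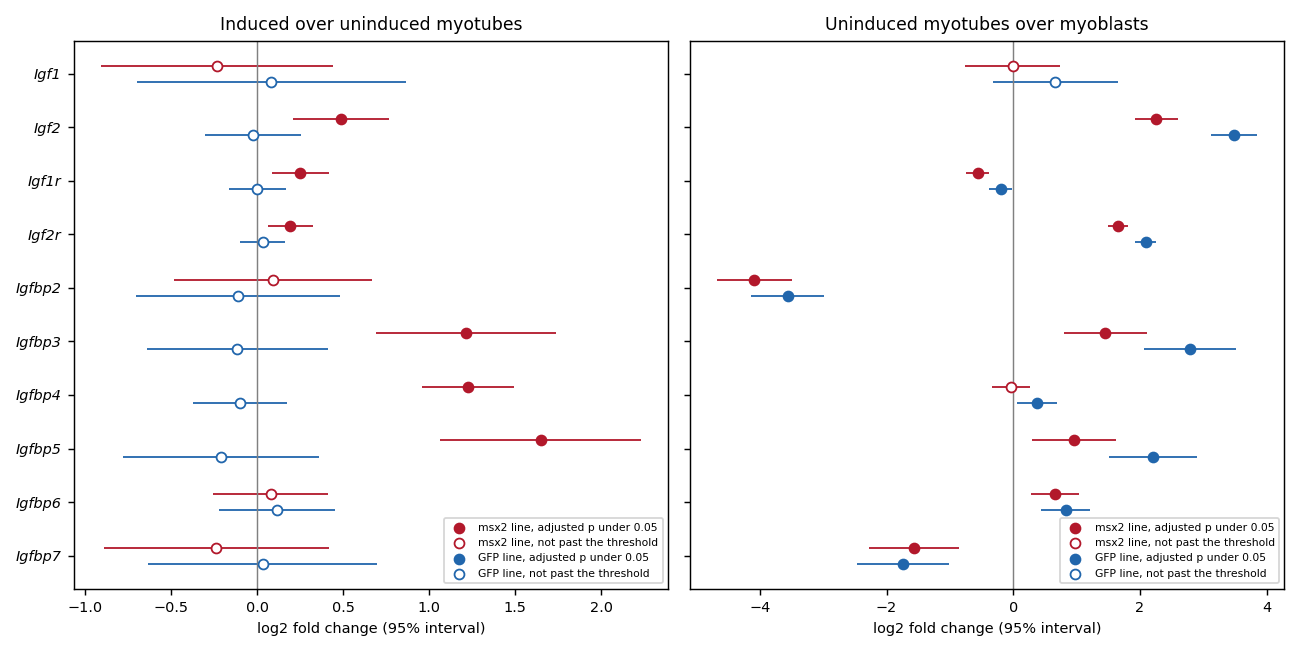
Log2 fold changes of the 10 family members with 95% intervals, for induced over uninduced myotubes (left) and uninduced myotubes over myoblasts (right), in the msx2 line (red, upper mark) and the GFP line (blue, lower mark). Filled marks passed the threshold; on induction 6 red and 0 blue marks are filled, and on differentiation 8 red and 9 blue.

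Most of the family differed between uninduced myotubes and myoblasts of the same line, a step called differentiation here, in both lines. The step also holds the change of serum, isolation on the mesh and reculture with AraC, and the medium of uninduced myotubes is not stated. These parts cannot be told apart from differentiation itself. In the msx2 line 5 members rose and 3 fell, where 79.8% of all genes were called (40.8% higher and 39% lower). In the GFP line 6 rose and 3 fell, where 77.7% of all genes were called (39.8% higher and 37.9% lower). Igf2, Igf2r, Igfbp3, Igfbp5 and Igfbp6 rose in both lines, while Igf1r, Igfbp2 and Igfbp7 fell in both. These shares are close to the background, so the count alone sets the family apart in neither line. In bulk RNA such as this, fewer cells of a type and less RNA per cell cannot be told apart.

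Igf2 had the highest level per kilobase of exon of the 10 members in all 4 myotube groups. Its level was 3521, 2892 and 4098 CPM in the 3 induced msx2 myotube libraries, against 2468, 2318 and 2704 CPM in the uninduced ones. Every induced library lay above every uninduced one. Its log2 change was 0.49 ± 0.13 (SE; adjusted p = 0.0091). In the GFP line Igf2 stood at 2470, 2070 and 2705 CPM in induced myotubes and at 2473, 2082 and 2813 CPM in uninduced ones, a log2 change of -0.024 ± 0.13 (SE; adjusted p = 1). The GFP groups overlapped almost fully. The difference between the inductions, 0.51 ± 0.18 on the log2 scale, missed the threshold (adjusted p = 0.0688). With the replicate number as a block it was 0.50 and passed it (adjusted p = 0.000821). It also passed with 1 library left out, at 0.0152 without induced msx2 myotube 2, 0.0288 without uninduced GFP myotube 2 and 0.0468 without induced GFP myotube 3. DESeq2 (0.041), the block with a GC correction (0.0127) and leaving out both msx2 myotube libraries numbered 2 (0.0342) also gave a call.

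Differentiation moved Igf2 further than induction did. It was at 528 and 513 CPM in msx2 myoblasts and at 214 and 222 CPM in GFP myoblasts, all far below the myotube libraries above. The rise was 4.79-fold in the msx2 line, 2.26 ± 0.16 on the log2 scale (SE; adjusted p = 4.99e-09). It was 11.3-fold in the GFP line, 3.49 ± 0.17 on the log2 scale (SE; adjusted p = 1.03e-10). The gene has 4 promoters in the RefSeq table, and counts per gene do not separate their transcripts. The antisense gene Igf2as, which overlaps it, had 19 to 207 reads per library, 0.126 to 0.657% of the Igf2 reads. Igf2as rose with msx2 induction as well, by 0.66 ± 0.23 on the log2 scale (SE; adjusted p = 0.0403). For this gene the difference between the inductions, 0.70 ± 0.33, was not called (SE; adjusted p = 0.18). The strand setting of the counting is not given in the sources used here, so reads of the overlap cannot be assigned to either gene with certainty.

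Igf1 had the fewest reads of the 10 members. Its counts were 14 to 27 reads per library in induced msx2 myotubes, 17 to 32 in uninduced msx2 myotubes and 6 to 22 in GFP myotubes of either kind. Myoblasts had 20 and 24 reads in the msx2 line and 8 and 8 in the GFP line. No comparison called it. The log2 change with msx2 induction was -0.23, with a 95% interval of -0.91 to 0.44.

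The receptors moved less than the ligand with msx2. Igf1r, the signalling receptor, was at 81.6, 91.4 and 89.7 CPM in induced msx2 myotubes, against 64.7, 79.2 and 76.7 CPM in uninduced ones. The groups did not overlap, and the log2 change was 0.25 ± 0.078 (SE; adjusted p = 0.0212). Its log2 change in the GFP line was 0.0014 ± 0.078 (SE; adjusted p = 1), with 94.0, 91.4 and 82.6 CPM in induced and 91.4, 93.2 and 83.3 CPM in uninduced myotubes. The induced msx2 libraries thus lay within the range of the GFP myotubes or just below it, and it was the uninduced msx2 myotubes that were lowest of the 6 groups. The call was lost without uninduced msx2 myotube 1 (adjusted p = 0.102), induced msx2 myotube 2 (0.0608) or induced msx2 myotube 3 (0.0614), and with only the compared groups in the fit (0.0847).

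Igf2r, the receptor that clears IGF2, was at 350, 381 and 388 CPM in induced msx2 myotubes, against 329, 329 and 321 CPM in uninduced ones. The shift was small beside a narrow spread, and the groups did not overlap. The log2 change was 0.19 ± 0.061 (SE; adjusted p = 0.0235). It was 0.032 ± 0.061 in the GFP line (SE; adjusted p = 1), with 370, 349 and 327 CPM in induced and 351, 353 and 319 CPM in uninduced myotubes. The msx2 call was lost without uninduced msx2 myotube 3 (adjusted p = 0.071), induced msx2 myotube 2 (0.0566) or induced msx2 myotube 3 (0.0829), without both msx2 myotube libraries numbered 2 (0.0697), and with only the compared groups in the fit (0.0978). For neither receptor did the difference between the inductions pass, at adjusted p = 0.144 for Igf1r and 0.239 for Igf2r.

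With differentiation the receptors went opposite ways. Igf2r stood at 101 and 106 CPM in msx2 myoblasts and at 80.1 and 79.8 CPM in GFP myoblasts, so that it was 3.16-fold higher in msx2 myotubes and 4.26-fold higher in GFP myotubes. The log2 changes were 1.66 ± 0.073 and 2.09 ± 0.075 (SE; adjusted p = 1.54e-11 and 1.86e-12). Igf1r was at 108 and 109 CPM in msx2 myoblasts and fell by 0.56 ± 0.086 on the log2 scale in msx2 myotubes (SE; adjusted p = 2.02e-05). In GFP myoblasts it was at 104 and 101 CPM, and its fall of 0.20 ± 0.086 on the log2 scale only just passed (SE; adjusted p = 0.0461). That last call was lost with each GFP myoblast library left out (adjusted p = 0.169 and 0.0853), without uninduced GFP myotube 1 (0.058) or 3 (0.132), without induced GFP myotube 2 (0.0545), with upper-quartile scaling (0.609), with a filter of at least 5 CPM in 3 libraries (0.685) and with DESeq2 (0.0539).

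Per kilobase of exon, which allows levels of different genes to be set side by side, the Igf2r level was 7.69 ± 0.15 times that of Igf1r in induced msx2 myotubes, 8.06 ± 0.95 times in uninduced msx2 myotubes and 1.71 ± 0.052 times in msx2 myoblasts (SD). The ratios of the GFP line were 7.04 ± 0.14, 6.88 ± 0.048 and 1.41 ± 0.028 (SD). The receptor ratio thus changed with differentiation far more than with induction. Airn, a noncoding gene that overlaps Igf2r, had 4595 to 8588 reads per library. In GFP myoblasts it had 5825 and 5617 reads, against 1718 and 1749 reads of Igf2r. Because the strand setting is not given, reads of this overlap cannot be assigned with certainty, which limits the Igf2r values above. Airn was not called with msx2 induction (log2 change -0.16, adjusted p = 0.183) and fell by 0.24 on the log2 scale with msx2 differentiation (adjusted p = 0.0351), where Igf2r rose. In GFP differentiation, where Igf2r rose as well, Airn was not called (log2 change -0.17, adjusted p = 0.111).

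Of the 6 binding proteins, Igfbp5, Igfbp4 and Igfbp3 were raised by msx2 and not by GFP alone, and their promoters are shown because these 3 moved together. Each line gives the 250 bases before the gene's start, 5′ to 3′ on the gene's strand, from RefSeq (build GRCm38.p6), with capitals marking each match to CANNTG, the core bound by the muscle factor MyoD and its relatives.
Igfbp3, chr11:7213924-7214173, minus strand: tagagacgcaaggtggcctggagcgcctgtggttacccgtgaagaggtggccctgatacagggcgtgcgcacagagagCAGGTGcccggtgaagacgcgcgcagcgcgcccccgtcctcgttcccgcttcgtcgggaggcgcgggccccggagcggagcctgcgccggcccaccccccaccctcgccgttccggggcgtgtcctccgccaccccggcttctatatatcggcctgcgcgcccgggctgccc
Igfbp4, chr11:99040994-99041243, plus strand: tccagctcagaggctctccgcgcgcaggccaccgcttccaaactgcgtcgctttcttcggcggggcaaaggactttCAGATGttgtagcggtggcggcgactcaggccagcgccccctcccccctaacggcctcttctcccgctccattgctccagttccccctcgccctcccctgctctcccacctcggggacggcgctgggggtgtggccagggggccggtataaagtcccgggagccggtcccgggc
Igfbp5, chr1:72874866-72875115, minus strand: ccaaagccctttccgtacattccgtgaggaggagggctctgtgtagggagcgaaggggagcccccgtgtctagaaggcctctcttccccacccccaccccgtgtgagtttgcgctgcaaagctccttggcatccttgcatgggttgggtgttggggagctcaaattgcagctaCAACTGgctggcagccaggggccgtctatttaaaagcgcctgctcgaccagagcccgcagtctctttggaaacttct

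Each of the 3 windows holds 1 CANNTG match, which begins at position -172 in Igfbp3, -174 in Igfbp4 and -77 in Igfbp5, counted back from the start. Such a match is common: 66.2% of 32851 promoters in the same table hold at least 1 in a window of the same length. TAATTG, a core that MSX homeodomains are known to bind, was searched on both strands and is in none of the 3 windows, nor in that of any other family member. It is in 7.17% of all promoters. Igfbp4 alone of the family has the TATA box letters TATAAA on its own strand, at position -28, as do 7.59% of promoters. CANNTG reads alike on both strands, and no 2 of these matches overlap. These are letters in a window and not measured binding.

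Igfbp5, the binding protein with the highest level per kilobase in all myotube groups, was at 3310, 2883 and 3693 CPM in induced msx2 myotubes, against 1302, 830 and 1020 CPM in uninduced ones. Every induced library lay above every uninduced one. Its log2 change was 1.65 ± 0.27 (SE; adjusted p = 0.000439). In GFP cells it was at 1406, 784 and 722 CPM in induced myotubes and at 1468, 1087 and 811 CPM in uninduced ones, with overlapping groups and a log2 change of -0.21 ± 0.26 (SE; adjusted p = 1). The difference between the inductions was 1.86 ± 0.37 on the log2 scale (SE; adjusted p = 0.00394). Igfbp5 also rose with differentiation, by 0.96 ± 0.30 in the msx2 line and 2.21 ± 0.32 in the GFP line on the log2 scale (SE; adjusted p = 0.0109 and 3.71e-05), over 548 and 532 CPM in msx2 myoblasts and 235 and 250 CPM in GFP myoblasts. The rise in the msx2 line was not called without msx2 myoblast 2 (adjusted p = 0.0542).

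Igfbp4, a secreted inhibitor of IGF action that the protease PAPP-A cleaves, had the smallest adjusted p of the family on msx2 induction. Its level was 60.1, 78.4 and 74.8 CPM in induced msx2 myotubes, against 23.2, 31.2 and 36.3 CPM in uninduced ones. The log2 change was 1.23 ± 0.13 (SE; adjusted p = 2.69e-06), and the groups did not overlap. GFP myotubes held it in a narrow band, at 31.7, 31.0 and 30.8 CPM when induced and 31.4, 34.3 and 34.4 CPM when uninduced. The difference between the inductions was 1.33 ± 0.18 on the log2 scale (SE; adjusted p = 0.000106).

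With differentiation Igfbp4 was called in 1 line only, and the difference between the lines did not pass (adjusted p = 0.232). It was at 30.04 and 32.2 CPM in msx2 myoblasts, with a log2 change of -0.034 ± 0.14 in uninduced myotubes (SE; adjusted p = 0.835). That sign is positive under upper-quartile scaling, the stricter filter and the replicate block with a GC correction, without a call in any. In GFP myoblasts it was at 25.1 and 26.3 CPM, and the rise of 0.38 ± 0.15 on the log2 scale passed (SE; adjusted p = 0.0275). This call was lost without GFP myoblast 1 (adjusted p = 0.13) or 2 (0.0787), uninduced GFP myotube 2 (0.0671) or 3 (0.0697), and with no filter on low counts (0.0555).

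Igfbp3, the main carrier of IGFs in blood, was at 47.5, 61.2 and 60.6 CPM in induced msx2 myotubes, against 18.4, 32.6 and 21.7 CPM in uninduced ones. Again no induced library fell within the uninduced range. A log2 change of 1.21 ± 0.24 resulted (SE; adjusted p = 0.00177). It was -0.11 ± 0.24 in the GFP line (SE; adjusted p = 1), with 29.5, 35.5 and 21.8 CPM in induced and 31.8, 40.2 and 22.4 CPM in uninduced myotubes. The difference between the inductions was 1.33 ± 0.34 on the log2 scale (SE; adjusted p = 0.0164). Its level was 8.65 and 9.09 CPM in msx2 myoblasts and 4.81 and 4.29 CPM in GFP myoblasts, all below the myotubes, and it rose with differentiation by 1.46 ± 0.30 and 2.79 ± 0.34 on the log2 scale (SE; adjusted p = 0.000668 and 5.67e-06).

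The other binding proteins were not called with msx2. Igfbp2 marked myoblasts: it was at 7.44, 9.45 and 10.9 CPM in induced msx2 myotubes, at 7.09, 9.21 and 9.59 CPM in uninduced ones, and at 156 and 140 CPM in msx2 myoblasts. That is 17.0-fold lower in uninduced msx2 myotubes than in msx2 myoblasts (log2 change -4.09 ± 0.27, SE; adjusted p = 1.34e-08). In GFP myotubes it was 11.8-fold lower (log2 change -3.56 ± 0.27, SE; adjusted p = 5.63e-08), with 14.1, 7.16 and 7.12 CPM in uninduced myotubes and 107 and 111 CPM in myoblasts. Cycling markers went the same way, with 20.1 to 70.9 CPM summed over 6 genes in myotube libraries and 1135 to 1548 CPM in myoblast libraries, and their part in the Igfbp2 change was not tested. With msx2 induction Igfbp2 changed by 0.092 on the log2 scale, with a 95% interval of -0.48 to 0.67.

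Igfbp6, which prefers IGF2 over IGF1, was at 119, 96.6 and 92.4 CPM in induced msx2 myotubes, against 119, 97.6 and 75.0 CPM in uninduced ones. Its log2 change was 0.080, with a 95% interval of -0.25 to 0.41. It rose with differentiation by 0.66 ± 0.18 in the msx2 line and 0.83 ± 0.18 in the GFP line on the log2 scale (SE; adjusted p = 0.00383 and 0.000879), over 64.2 and 58.8 CPM in msx2 myoblasts and 44.2 and 44.5 CPM in GFP myoblasts.

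Igfbp7, a matrix-associated member of the wider family with low affinity for IGFs, was at 42.9, 98.4 and 52.6 CPM in induced msx2 myotubes, against 47.5, 107 and 73.1 CPM in uninduced ones. The library numbered 2 was highest in both groups. The 8 fibroblast markers summed to 260, 838 and 383 CPM in the same induced libraries and to 245, 724 and 438 CPM in the uninduced ones, in the same order as Igfbp7, and their part in its spread was not tested. Most of that sum was Col1a1, which muscle cells can also express. Igfbp7 fell with differentiation by 1.57 ± 0.33 in the msx2 line and 1.74 ± 0.33 in the GFP line on the log2 scale (SE; adjusted p = 0.00077 and 0.000391), below 225 and 226 CPM in msx2 myoblasts and 183 and 178 CPM in GFP myoblasts. Over the same step the 4 smooth muscle markers all fell in both lines, with a sum of 1092 to 1534 CPM in uninduced msx2 myotubes against 4808 to 5155 CPM in msx2 myoblasts, and 1000 to 1346 CPM in uninduced GFP myotubes against 3165 to 3212 CPM in GFP myoblasts. The fibroblast sum was 245 to 724 CPM in uninduced msx2 myotubes against 1171 to 1209 CPM in msx2 myoblasts, and 326 to 372 CPM in uninduced GFP myotubes against 767 to 793 CPM in GFP myoblasts. Its members were split, however. Of 6 tested fibroblast markers, 3 rose and 2 fell in the msx2 line, and 2 rose and 2 fell in the GFP line. The part of both lists in the Igfbp7 change was not tested. Its log2 change with msx2 induction was -0.24, with a 95% interval of -0.89 to 0.42. Without both msx2 myotube libraries numbered 2, Igfbp3, Igfbp4 and Igfbp5 kept their calls on induction.

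**Figure D2:**
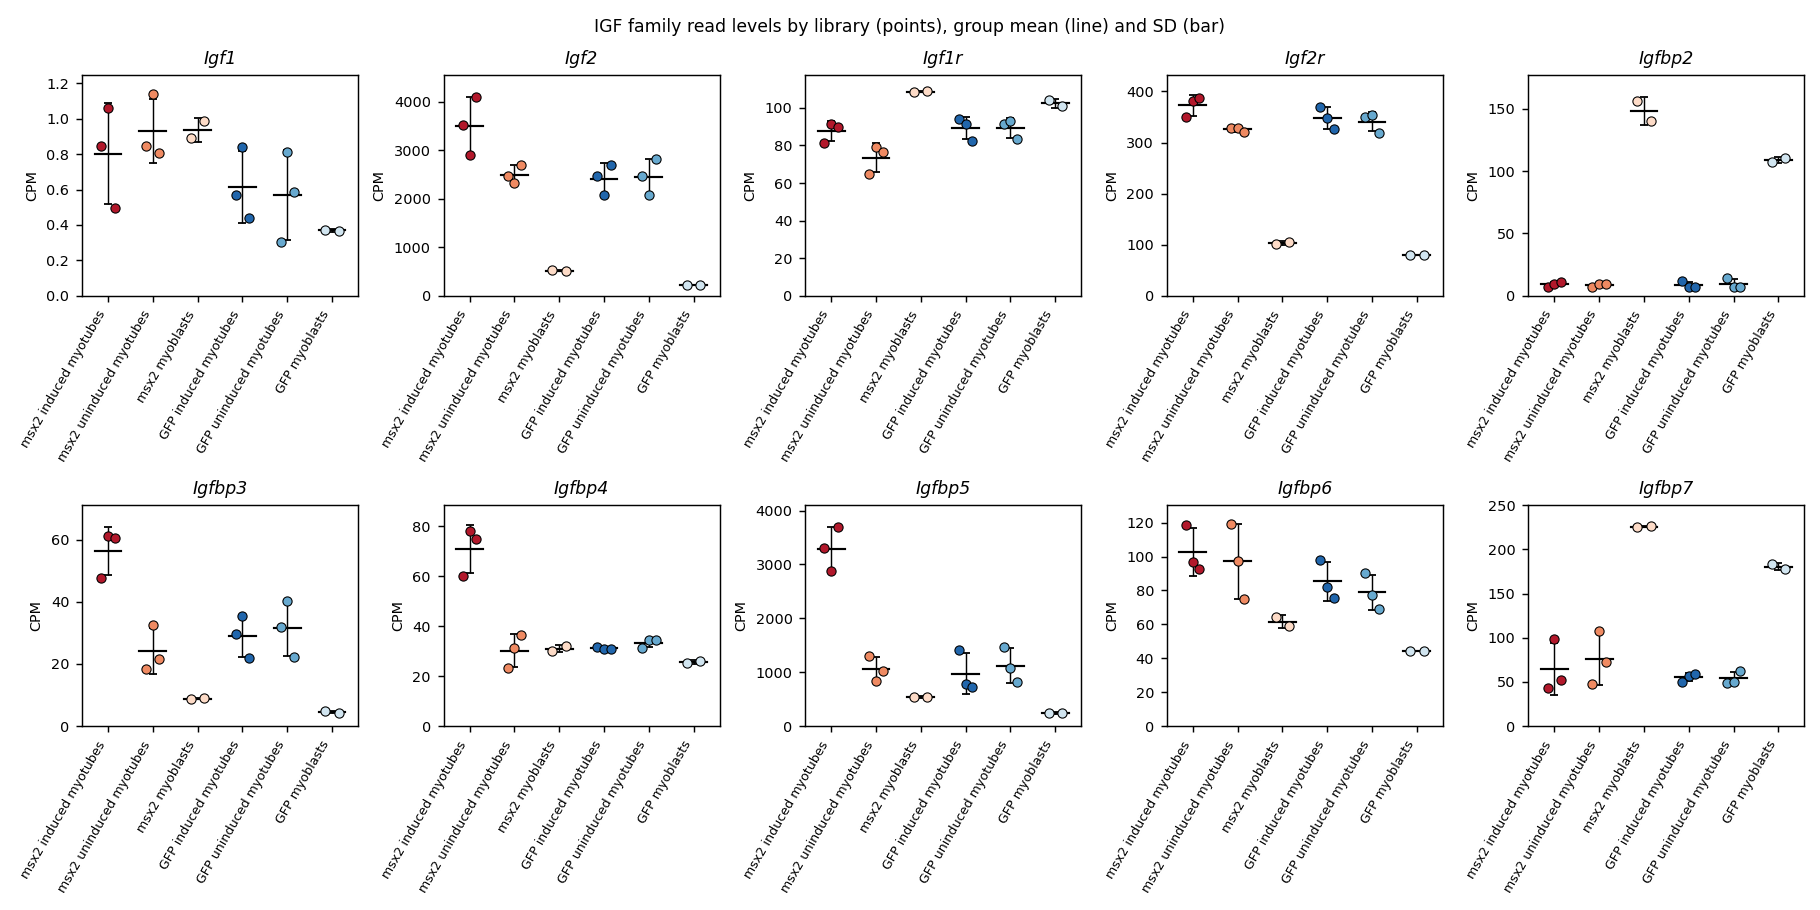
Level of each family member in CPM (linear axes from 0) in all 16 libraries, by group. Points are libraries, lines are group means and bars are the SD; Igfbp3, Igfbp4 and Igfbp5 are highest in the 3 induced msx2 myotube libraries, while Igfbp2 and Igfbp7 are highest in myoblasts.

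The makeup of the binding proteins changed with both steps. Their summed level per kilobase of exon was 734 ± 47 CPM in induced msx2 myotubes, 344 ± 31 CPM in uninduced msx2 myotubes and 422 ± 10.3 CPM in msx2 myoblasts (SD). In GFP cells the sum was 305 ± 71 CPM in induced myotubes, 325 ± 62 CPM in uninduced myotubes and 296 ± 0.21 CPM in myoblasts (SD). The induced msx2 myotubes, at 691 to 784 CPM, lay above every other library.

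Igfbp5 made up most of that difference. It was 74.6 ± 4.6% of the summed binding protein level in induced msx2 myotubes, 50.6 ± 8.5% in uninduced msx2 myotubes and 21.3 ± 0.078% in msx2 myoblasts (SD). Its share was 51.8 ± 7.6%, 56.7 ± 6.0% and 13.6 ± 0.59% in the same states of the GFP line (SD). Igfbp7 was the largest part in myoblasts, at 44.3 ± 1.3% in the msx2 line and 50.5 ± 1.1% in the GFP line, where Igfbp2 made up 18.99 ± 1.0% and 19.9 ± 0.44% (SD), below the Igfbp5 share in msx2 myoblasts and above it in GFP myoblasts. Igfbp3 and Igfbp4, although they rose with msx2, were only 2.46 ± 0.37% and 2.20 ± 0.35% of the total in induced msx2 myotubes (SD).

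Set against the ligand, Igf2 per kilobase was 0.831 ± 0.092 times the summed binding proteins in induced msx2 myotubes, 1.28 ± 0.18 times in uninduced msx2 myotubes and 0.216 ± 0.00077 times in msx2 myoblasts (SD). The induced libraries ran from 0.732 to 0.914 and the uninduced ones from 1.14 to 1.49, without overlap. For GFP cells the ratio was 1.43 ± 0.38 in induced myotubes, 1.36 ± 0.41 in uninduced myotubes and 0.129 ± 0.0033 in myoblasts (SD). These are ratios of RNA and not of protein.

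**Figure D3:**
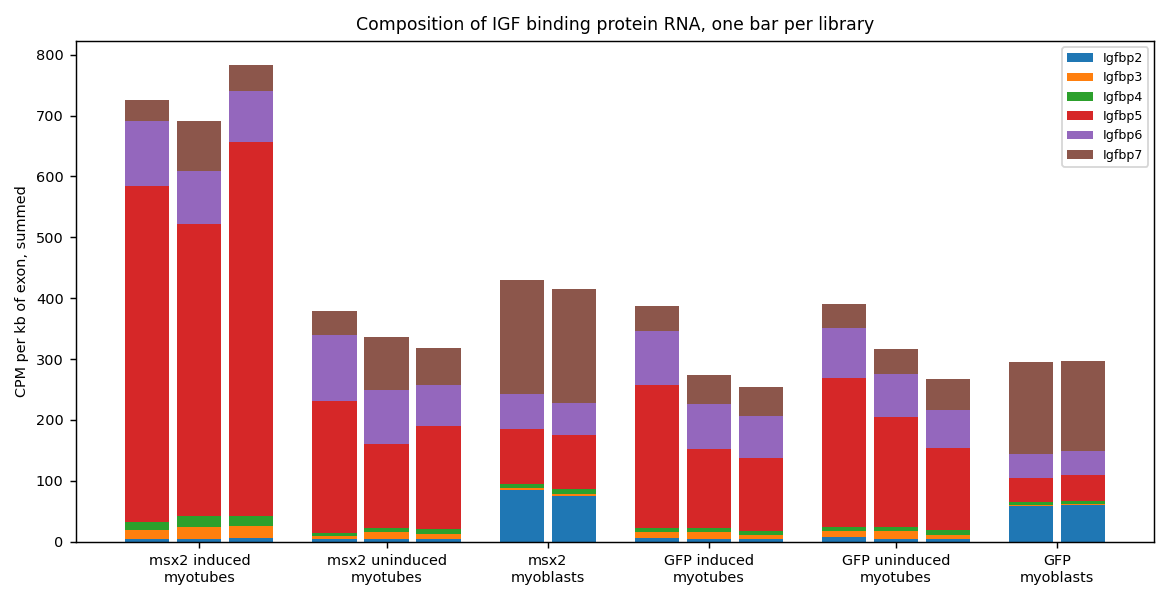
Summed level of the 6 binding proteins per kilobase of exon (CPM per kb, linear axis from 0), with 1 stacked bar per library and colours for the genes. The 3 induced msx2 myotube bars reach 691 to 784, most of it Igfbp5, while in myoblasts Igfbp7 is the largest part.

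Induced msx2 myotubes were higher than induced GFP myotubes in 4 members and lower in none, where 35.3% of all genes were called (17.6% higher and 17.8% lower), so the count is near the background. These were Igfbp5 (log2 difference 1.76 ± 0.27, SE; adjusted p = 0.000237), Igfbp4 (1.19 ± 0.13; 3.45e-06), Igfbp3 (0.96 ± 0.24; 0.00714) and Igf2 (0.54 ± 0.13; 0.00458). In uninduced myotubes 0 of the 10 were called, where 0.0616% of all genes were called (0.00616% higher and 0.0554% lower), and DESeq2 called 0 too. Igf1r was the only member with an unadjusted p under 0.05 there, with a log2 difference of -0.28 ± 0.078 (SE; adjusted p = 0.202).

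Myoblasts of the msx2 line already stood above GFP myoblasts in 3 members, where 16.3% of all genes were called (9.09% higher and 7.24% lower). Igf2 differed by 1.26 ± 0.16, Igfbp5 by 1.16 ± 0.33 and Igf2r by 0.37 ± 0.077 on the log2 scale (SE; adjusted p = 0.000144, 0.0316 and 0.00466). The Igfbp5 call was lost with any of the 4 myoblast libraries left out (adjusted p = 0.145 without msx2 myoblast 1, 0.0724 without msx2 myoblast 2, 0.15 without GFP myoblast 1 and 0.142 without GFP myoblast 2), and that of Igf2r without GFP myoblast 2 (0.0524). Muscle markers moved alike, with 2037 to 2160 CPM summed in msx2 myoblasts and 1107 to 1119 CPM in GFP myoblasts. Smooth muscle markers summed to 4808 to 5155 CPM in msx2 myoblasts and 3165 to 3212 CPM in GFP myoblasts, and fibroblast markers to 1171 to 1209 CPM in msx2 myoblasts and 767 to 793 CPM in GFP myoblasts. Most of the fibroblast sum was Col1a1, with means of 1109 CPM in msx2 and 730 CPM in GFP myoblasts. Col1a2 was higher as well, while Pdgfra, Dcn and Dpt had lower means in msx2 myoblasts. The cycling sum was the other way, at 1135 to 1136 CPM in msx2 myoblasts and 1534 to 1548 CPM in GFP myoblasts. Its members were split, with lower means in msx2 myoblasts for Mki67, Top2a, Ccnb1 and Bub1 and slightly higher ones for Cdk1 and Aurkb. Msx2 reads stood at 16.4 to 16.8 CPM in msx2 myoblasts and at 1.28 to 1.59 CPM in GFP myoblasts, both uninduced. The part of these lists and of Msx2 in the differences was not tested.

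The differentiation change was smaller in the msx2 line than in the GFP line for 2 members, where 8.28% of all genes were called (4.01% higher and 4.27% lower). The difference of the log2 changes was -1.23 ± 0.21 for Igf2 and -0.43 ± 0.098 for Igf2r (SE; adjusted p = 0.00226 and 0.0134). It rests on the myoblasts, since uninduced myotubes of both lines were not called apart. The Igf2r call was lost without msx2 myoblast 2 (adjusted p = 0.0557), GFP myoblast 1 (0.0576) or GFP myoblast 2 (0.0756). Igfbp3 (-1.33 ± 0.45; adjusted p = 0.0895), Igfbp5 (-1.25 ± 0.42; 0.0896) and Igf1r (-0.36 ± 0.12; 0.0839) had differences that did not pass. They passed with some libraries left out: Igfbp3 without uninduced msx2 myotube 2 (0.0292) or uninduced GFP myotube 3 (0.0419), Igf1r without uninduced msx2 myotube 2 (0.0433) and Igfbp5 without induced GFP myotube 1 (0.0337). With all libraries kept, DESeq2 called Igfbp3 (adjusted p = 0.00585), Igfbp5 (0.0435) and Igf1r (0.0451). The replicate block in edgeR called Igfbp3 (adjusted p = 0.0335) and Igf1r (0.0481).

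In induced msx2 myotubes against msx2 myoblasts, 6 members were higher and 3 lower, where 80.9% of all genes were called (42.4% higher and 38.4% lower), so the count is near the background. Igfbp3 was 6.36-fold, Igfbp5 6.11-fold and Igf2 6.73-fold higher, Igf2r 3.61-fold higher, Igfbp4 2.29-fold higher and Igfbp6 1.67-fold higher. Igfbp2 was 16.0-fold, Igfbp7 3.49-fold and Igf1r 1.24-fold lower. The Igf1r call was lost with upper-quartile scaling (adjusted p = 0.29) and with the filter of at least 5 CPM in 3 libraries (0.358). Of the muscle markers, 4 of 8 fell with msx2 induction and 1 rose, where 16.3% of all genes were lower and 16.2% higher. Their summed level was 15040 to 17470 CPM in induced and 25190 to 27540 CPM in uninduced msx2 myotubes. Their part in the changes of the family was not tested.

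Some proteins free IGFs from binding proteins or keep that from happening. Of 8 tested genes of IGF availability, 3 fell and 0 rose with msx2, where 32.5% of all genes were called (16.2% higher and 16.3% lower), with a median log2 change of -0.46, beside -0.011 over all genes. With no filter on low counts, 1 gene of the list was called higher. Stc2, a secreted inhibitor of the PAPP-A proteases that cleave IGF binding proteins, was at 7.23, 12.1 and 12.4 CPM in induced msx2 myotubes, against 24.5, 25.1 and 29.95 CPM in uninduced ones (log2 change -1.32 ± 0.15, SE; adjusted p = 9.15e-06). Pappa2, such a protease, fell by 0.52 ± 0.12 on the log2 scale (SE; adjusted p = 0.00318) and Adam12, a membrane metalloprotease reported to cut Igfbp3 and Igfbp5, by 0.77 ± 0.15 (0.00142). The difference between the inductions was called for Stc2 (log2 difference -1.32, adjusted p = 0.000404) and Adam12 (-0.72, 0.0321), the second lost without any 1 of 7 libraries, at adjusted p = 0.0628 to 0.081, and with only the compared groups in the fit (0.0621). No other tested gene of the list was called there, Pappa2 included. In GFP differentiation, where 77.7% of all genes were called, 3 of the 8 rose and 1 fell: Pappa2 by 2.75 ± 0.17 and Stc2 by 2.68 ± 0.19 on the log2 scale (SE; adjusted p = 5.92e-10 and 7.25e-09), while Adam12 fell by 0.80 ± 0.17 (0.000515).

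Among receptors and adaptors other than the family members, 10 were tested, and 4 rose and 3 fell with msx2, where 16.2% of all genes were higher and 16.3% lower. Irs1 and Irs2, the docking proteins of the activated receptors, went opposite ways. Irs2 was at 14.1, 11.3 and 11.7 CPM in induced msx2 myotubes, against 4.74, 5.12 and 6.85 CPM in uninduced ones (log2 change 1.13 ± 0.17, SE; adjusted p = 6.56e-05). Irs1 was at 17.9, 21.0 and 16.8 CPM in induced msx2 myotubes, against 42.3, 40.4 and 36.1 CPM in uninduced ones (log2 change -1.09 ± 0.14, SE; adjusted p = 1.84e-05). Neither gene's groups overlapped, and both inductions differed between the lines (adjusted p = 0.00164 for Irs2 and 0.0013 for Irs1). Shc1, an adaptor to Ras, rose by 0.50 ± 0.069 and Grb14, an inhibitory adaptor of the insulin receptor, fell by 0.87 ± 0.13 on the log2 scale (SE; adjusted p = 4.3e-05 and 0.000101). In GFP differentiation 1 of these 10 rose and 5 fell, where 77.7% of all genes were called, Insr rising by 0.82 ± 0.13, and Shc1 and the phosphatase Ptpn1 falling by 0.73 ± 0.077 and 0.66 ± 0.072 on the log2 scale (SE; adjusted p = 4.54e-05, 3.13e-07 and 5.17e-07).

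Of 25 tested genes of PI3K, Akt and mTOR, 6 rose and 9 fell with msx2, where 16.2% of all genes were higher and 16.3% lower. Pik3cb, a catalytic subunit of PI3K, was at 23.8, 20.4 and 24.2 CPM in induced msx2 myotubes, against 71.2, 51.2 and 67.3 CPM in uninduced ones (log2 change -1.47 ± 0.11, SE; adjusted p = 1.31e-07). The phosphatase Inppl1, which degrades the PI3K product, fell by 0.89 ± 0.099 (adjusted p = 4.33e-06), while Pik3r2, a regulatory subunit of PI3K, rose by 0.44 ± 0.069 (0.000132) and Pdpk1, the kinase that activates Akt, by 0.35 ± 0.059 on the log2 scale (SE; 0.000255). The list's median log2 change was 0.076. In GFP differentiation 13 rose and 8 fell, near the 77.7% of all genes called there, with Inppl1 up by 1.54 ± 0.12 and Foxo4, a transcription factor that Akt restrains, up by 1.07 ± 0.085, and with Akt1 down by 0.83 ± 0.055 and Pik3r2 down by 0.86 ± 0.076 on the log2 scale (SE; adjusted p = 6.45e-09, 1.22e-08, 1.43e-09 and 3.97e-08). With GFP induction 0 genes of any of these lists were called.

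**Figure D4:**
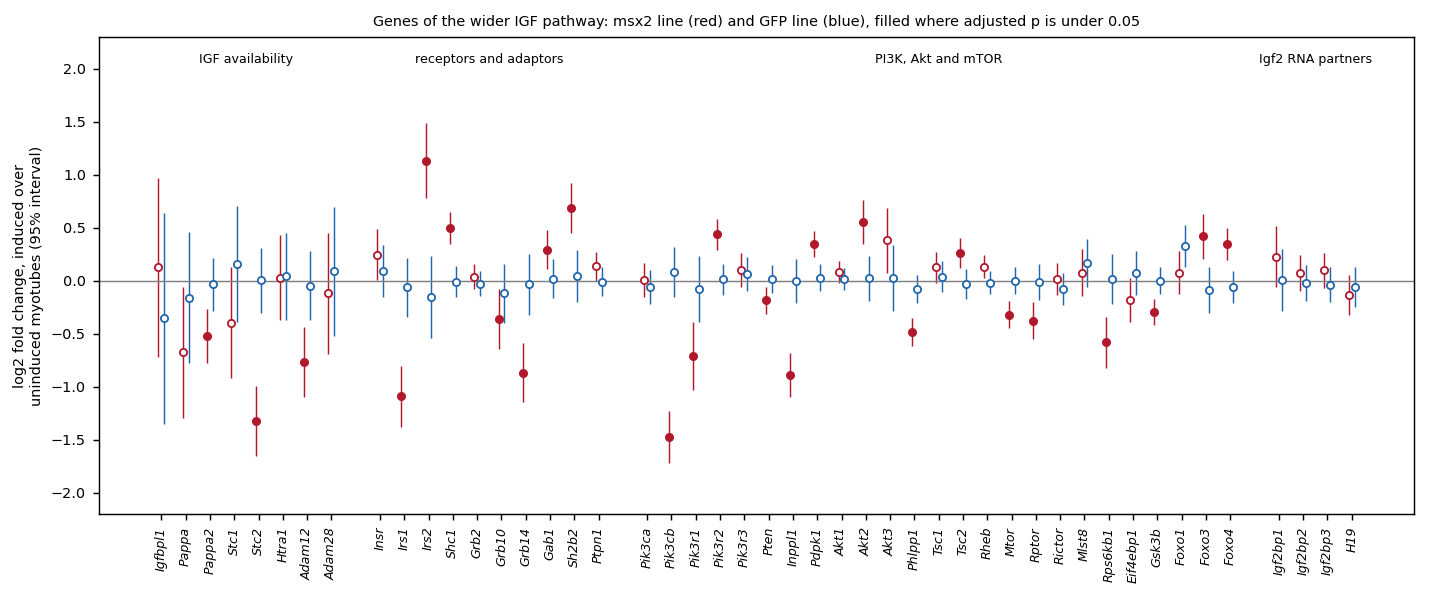
Log2 fold changes with 95% intervals, induced over uninduced myotubes, of the tested genes of the 4 pathway lists, in the msx2 line (red, left mark) and the GFP line (blue, right mark), filled where adjusted p is under 0.05. Irs2 is the highest red mark at 1.13 and Pik3cb the lowest at -1.47, and no blue mark is filled.

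The RNA partners of Igf2 did not pass with msx2, with 0 of 4 called by edgeR (unadjusted p from 0.113 to 0.393) or by DESeq2. With the replicate block and a GC correction 1 was called lower, and without uninduced msx2 myotube 3, 1 was called higher. H19, the noncoding neighbour of Igf2 that shares its enhancers, was at 8804 ± 570 CPM in induced msx2 myotubes and 9656 ± 704 CPM in uninduced ones (SD, n = 3 each; log2 change -0.13, adjusted p = 0.276). In GFP differentiation H19 rose by 1.79 ± 0.11, while Igf2bp3 and Igf2bp2, which bind Igf2 RNA, fell by 1.84 ± 0.082 and 1.12 ± 0.087 on the log2 scale (SE; adjusted p = 3.86e-10, 1.89e-11 and 9.95e-09). H19 itself was at 10569 ± 1159 CPM in uninduced GFP myotubes (SD, n = 3) and 3057 ± 24.4 CPM in GFP myoblasts (SD, n = 2).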

How the data were processed

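The authors deposited raw counts, whole numbers of reads per gene, for 16 libraries; per the labels' protocols these came from 500 ng of RNA, a stranded kit and 12 PCR cycles. Build mm9, edgeR 3.6.8, SAMtools 0.1.19 and TopHat2 2.0.11 stand in the submitters' processing notes. How reads were counted (tool, annotation, strand) is not given in the sources used here. The 67 unnamed entries, 0.0601 to 0.0878% of counts, were dropped. One edgeR 4.0.16 model (R 4.3.3) with a coefficient per group was fitted to all libraries, with filterByExpr (minimum count 10), TMM scaling and robust two-sided quasi-likelihood F-tests in 10 comparisons, adjusted by Benjamini-Hochberg over 16245 genes at 0.05, and tested on simulated data. Fold changes are edgeR's shrunken ones. Levels per kilobase used GENCODE M21 exon lengths, which are not on mm9, and the counted genes get no coordinates. All 10 members are named, and in each pathway list at most 2 higher and 2 lower genes, by smallest adjusted p, in msx2 induction and in GFP differentiation, and Pappa2, chosen after its values were seen. Members and lists were chosen with earlier results of these data known. Alternatives were RLE and upper-quartile scaling, other low-count filters, the replicate number as a block with and without a GC correction, only the compared groups, DESeq2 1.42.0 and leaving out each library. Same-numbered libraries deviated together in msx2 induction (r 0.207 to 0.508), GFP induction (0.359 to 0.453) and the lines' uninduced myotubes (0.177 to 0.288), although the labels state no pairs. They did so less in the lines' induced myotubes (0.0912 to 0.247). The main fit holds no pairing. SEs and adjusted p given here therefore leave it out, except where the block is named. In every group, replicates differed by more than sampling noise (chi-square per degree of freedom 1.95 to 31.3). The most similar gene of Igf2r is not reported here.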

Additional observations from a re-analysis of the deposited data

Results flagged for a closer look

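These results are listed because the 2 lines differed in the same contrast, by a test of the difference itself in edgeR. The induction change differed for Igfbp3 (1.33 ± 0.34 on the log2 scale, SE; adjusted p = 0.0164), Igfbp4 (1.33 ± 0.18; 0.000106) and Igfbp5 (1.86 ± 0.37; 0.00394), all higher in the msx2 line than in the GFP line. The differentiation change differed for Igf2 (-1.23 ± 0.21; adjusted p = 0.00226) and Igf2r (-0.43 ± 0.098; 0.0134), both smaller in the msx2 line. For Igf2 and Igf2r the lines differed in myoblasts and were not called apart in uninduced myotubes.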

How the results depend on the processing

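The induction calls of Igfbp3, Igfbp4 and Igfbp5 and their differences between lines were kept under every alternative run. The number of members called for the difference of differentiations, 2, was 4 with the replicate block, 5 with DESeq2, 4 without both msx2 myotube libraries numbered 2 (an alternative added once the data had been seen) and 1 to 4 with a library left out. For lines in myoblasts, 3, it was 6 with the block, 8 with only the compared groups and 1 to 4 with a library left out; the cause was not tested. Same-numbered libraries hardly deviated together between the lines' myoblasts (r 0.040). The difference of differentiations also holds the uninduced myotubes of both lines, which did deviate together (0.177 to 0.288). The block made Igf2 pass in the difference of inductions. It changed no other call of a member there, in either induction or in the lines' uninduced myotubes. In the lines' induced myotubes 4 to 5 members were called over the alternatives, and Igf2, Igfbp3, Igfbp4 and Igfbp5 kept their calls in all of them. Counts over all genes moved by over 1.5 times as well. The 1345 genes of the difference of differentiations were 2264 with the block, 454 without msx2 myoblast 1, 674 without GFP myoblast 1 and 439 without GFP myoblast 2. The 2652 of lines in myoblasts were 5173 with only the compared groups, 764 without msx2 myoblast 1, 1156 without GFP myoblast 1 and 853 without GFP myoblast 2. The 10 of lines in uninduced myotubes were 1 to 278 and the 5 of GFP induction 3 to 11. Upper-quartile scaling moved the median of all genes by 0.216 and 0.147 log2 in msx2 and GFP differentiation. Sign changes occurred only in members without a call. With the block and GC correction they were Igfbp2 (-0.13) and Igfbp6 (-0.13) in msx2 induction, Igfbp2 (-0.039) in the difference of inductions, Igfbp4 (0.0088) in msx2 differentiation and Igfbp6 (0.015) in the difference of differentiations. Elsewhere they were Igf1r in GFP induction with no low-count filter (-0.0029), Igf1 in msx2 differentiation with upper-quartile scaling (0.21), the block (0.13) and only the compared groups (0.0013), and Igfbp4 there with upper-quartile scaling (0.18) and at least 5 CPM in 3 libraries (0.17). Without both libraries numbered 2, Igfbp6 was 0.010 in the difference of inductions and Igfbp7 -0.14 in the difference of differentiations. With a library left out, log2 changes ran as follows. In msx2 induction Igf1 ran from -0.49 to 0.037, Igfbp2 from -0.039 to 0.23, Igfbp6 from -0.079 to 0.25 and Igfbp7 from -0.67 to 0.095. In GFP induction Igf1 ran from -0.22 to 0.39, Igf2 from -0.13 to 0.086, Igf1r from -0.046 to 0.054, Igf2r from -0.013 to 0.077, Igfbp2 from -0.39 to 0.26, Igfbp3 from -0.32 to 0.11, Igfbp5 from -0.58 to 0.033 and Igfbp7 from -0.030 to 0.15. In the difference of inductions Igfbp2 ran from -0.17 to 0.48, Igfbp6 from -0.20 to 0.13 and Igfbp7 from -0.70 to 0.063. In msx2 differentiation Igf1 ran from -0.19 to 0.097 and Igfbp4 from -0.19 to 0.12, and in the difference of differentiations Igfbp7 ran from -0.15 to 0.41. Igf1 had 6 to 32 reads per library, the fewest of the members.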

Other observations

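For 9 of the family members the gene with the most similar pattern over the 16 libraries was found by Pearson's r of log2 CPM, as a description: the libraries share their group structure, so high values arise easily. Igf2 was most like Ckb (r = 0.997), the brain-type creatine kinase, and Igfbp2 most like Cit (0.994), a kinase of cytokinesis. Igfbp7 was most like Tagln (0.991), an actin-binding protein of smooth muscle, Igfbp5 most like Agpat3 (0.986), Igfbp3 most like Spsb1 (0.983) and Igfbp4 most like Il6ra (0.968), a subunit of the interleukin-6 receptor. The best match was weaker for Igfbp6 (Psmd4, 0.964), Igf1r (Rab2b, 0.944) and Igf1 (Atp6v1g1, 0.786), whose reads were few.

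Igfbp2 and Igfbp5 are neighbours on mouse chromosome 1, and their levels moved apart. Per kilobase of exon, Igfbp5 was 112 ± 22 times Igfbp2 in induced msx2 myotubes, 39.0 ± 15 times in uninduced msx2 myotubes and 1.12 ± 0.064 times in msx2 myoblasts (SD). In the GFP line it was 34.4 ± 2.4 times in induced myotubes, 37.9 ± 7.7 times in uninduced myotubes and 0.683 ± 0.014 times in myoblasts (SD). Within the msx2 line the induced libraries, from 93.8 to 137, lay above the uninduced ones, from 27.7 to 56.5.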
